A study of Homo sapiens with 12 samples.

Results

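The genes described here encode 10 surface molecules by which immune cells recognise, hold on to or spare another cell. They are the ligands of natural killer (NK) cells MICB, ULBP1, ULBP2, ULBP3 and PVR, the checkpoint ligands CD274 and PDCD1LG2, the phagocytosis inhibitor CD47, the adhesion molecule ICAM1 and the surface peptidase DPP4. They were taken by symbol from the deposited gene table, and all 10 were among its 16383 genes. A test could be made for 9 of them. MICB had a mean under 10 normalized counts over the 12 libraries and was not tested.

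RNA was sequenced from wild-type IMR90, a human fibroblast line of the lung that is in wide laboratory use, in 4 groups of 3 libraries, all grown in the same serum-containing medium. Proliferating cells received no treatment. The other 3 groups were irradiated with 20 Gy in 10 min and harvested on day 11. They received the vehicle DMSO, 2 µM palbociclib, which blocks the cell cycle kinases CDK4 and CDK6, or 2 µM ruxolitinib, which blocks the kinases JAK1 and JAK2. Both inhibitors were given on days 4, 6, 8 and 10 after irradiation. Irradiation, time since irradiation and DMSO differ together between the proliferating and the DMSO cells and cannot be told apart, and no unirradiated group received an inhibitor. The labels do not say that the 3 libraries of a group came from separate cultures, so p-values measure only the spread between these libraries.

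NK cells weigh signals from activating and inhibitory receptors. The receptor NKG2D binds MICB and the ULBP proteins, which are relatives of the major histocompatibility complex (MHC) class I molecules and are known to be raised by DNA damage. PVR (CD155) binds the activating receptor CD226 and the inhibitory receptors TIGIT and CD96. CD274 (PD-L1) and PDCD1LG2 (PD-L2) bind the receptor PD-1 and restrain T cells, and CD47 binds SIRP alpha on macrophages and restrains phagocytosis. ICAM1 holds leukocytes through their integrins, and DPP4 (CD26) removes dipeptides from peptide hormones and chemokines and has been described on the surface of senescent fibroblasts.

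All values are normalized counts, that is, gene read counts divided by a factor for each library. Between 14106799 and 21762412 reads per library were counted in the listed genes, and reads outside these genes are not included. Differences are on the scale of log2(normalized count + 1), positive where the group named before the word against is higher, and calls are those with an adjusted p below 0.05 in a limma fit of 11242 genes. If all libraries were instead brought to an equal sum (called the same total here), the median gene would shift by 0.23 for DMSO against proliferating cells, by -0.23 for palbociclib against DMSO, by -0.20 for palbociclib against ruxolitinib and by 0.20 for ruxolitinib against proliferating cells. Every change given here is measured under the deposited scaling, unless another is named.

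The labelled cell type was checked against marker genes. All 10 fibroblast markers were detected, with a summed value of 822420 to 854897 in the proliferating libraries, 408919 to 419590 in the DMSO ones, 651681 to 683887 after palbociclib and 515852 to 520021 after ruxolitinib. All 10 markers of T and NK cells and all 4 of B cells had a mean under 10, and their sums reached at most 17.1 and 13.9. Of 10 myeloid markers 7 had a mean under 10, the leukocyte gene PTPRC averaged 0.663 to 4.47, and the sum, most of it CD68, was 555 to 578 in proliferating cells, 1254 to 1338 in DMSO cells, 703 to 823 under palbociclib and 1117 to 1179 under ruxolitinib. Of 7 endothelial markers 4 had a mean under 10, CDH5 at 0 to 1.16 among them, and the sum, most of it TEK, was 1720.1 to 1963, 2403 to 2574, 3506 to 4381 and 2265 to 2273 in the same order. Of 8 epithelial markers 3 had a mean under 10, CDH1 averaged 0 to 13.996, and the sum, most of it KRT18, was 2131 to 2616, 1852 to 2105, 3649 to 4264 and 1865 to 2003. The endothelial and epithelial sums were thus highest with palbociclib and the myeloid sum with DMSO, and their part in the results was not tested. In bulk RNA, fewer cells that express a gene and less RNA per cell cannot be told apart.

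In senescent DMSO cells, 6 of the 9 tested ligand genes were higher than in proliferating cells, CD274 was lower, and ULBP3 and CD47 did not pass the test. ULBP1, ICAM1 and DPP4 differed most, at 3.89-fold, 3.86-fold and 3.57-fold. Of all genes tested, 72.4% were called in this comparison, 33% higher and 39.3% lower, so 7 calls of 9 is a share near that of the whole table. Higher genes made up 45.7% of all calls, against 64% with equal totals and 58.1% with equal upper quartiles. The median difference was 0.72 over the 9 ligand genes and -0.05 over all genes, and the median size regardless of sign was 0.95 and 0.45. The groups did not overlap for 7 of the 9 and for 75.1% of all genes.

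With palbociclib, PDCD1LG2, ULBP2 and PVR were higher than with DMSO and DPP4 and CD274 were lower, while ULBP1, ULBP3, CD47 and ICAM1 were not called. Of all genes 48.3% were called, 26% higher and 22.3% lower, beside these 3 higher and 2 lower of 9. The share of calls that were higher was 53.9% under the deposited scaling, against 15.4% with equal totals and 41.7% with equal upper quartiles. The groups did not overlap for 7 of 9 ligand genes and for 54.8% of all genes, and the median differences were 0.09 and 0.02.

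With ruxolitinib, CD274 and ICAM1 were lower than with DMSO, and the other 7 tested ligand genes were not called. In this comparison 4.52% of all genes were called, 1.1% higher and 3.42% lower, and limma called none of the ligand genes higher. No ligand gene was higher at an unadjusted p under 0.05, by edgeR or by DESeq2 either, while 5 were lower at that unadjusted p, 2 by edgeR and 3 by DESeq2. The groups did not overlap for 5 of the 9 and for 31.9% of all genes, and the median differences were -0.16 and -0.0028. The palbociclib and ruxolitinib comparisons share the 3 DMSO libraries, so their values are given side by side and not related to each other.

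The inhibitors were also compared directly, at the same dose and days. Palbociclib cells had more ULBP1, ULBP2, PVR, PDCD1LG2, CD47 and ICAM1 and less DPP4 than ruxolitinib cells. Of all genes 40.4% were called, 22.8% higher and 17.6% lower, beside these 6 higher and 1 lower of 9, and the groups did not overlap for 7 of the 9 and 51.8% of all genes. Higher genes made up 56.4% of all calls, against 15.7% with equal totals and 38.7% with equal upper quartiles. At the same total the calls of ULBP1 (0.19, adjusted p 0.0704), CD47 (0.05, adjusted p 0.343) and ICAM1 (0.07, adjusted p 0.377) were lost and 4 calls were left.

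Both inhibitor groups also differed from proliferating cells. Palbociclib cells differed in 8 of 9 ligand genes, 7 higher and 1 lower, where 73.8% of all genes were called, 35.2% higher and 38.6% lower. Ruxolitinib cells differed in 8 of 9, 6 higher and 2 lower, where 72.2% of all genes were called, 32.6% higher and 39.5% lower. Higher genes made up 45.2% of all calls of the ruxolitinib comparison, against 61.6% with equal totals and 58.8% with equal upper quartiles.

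**Figure D1:**
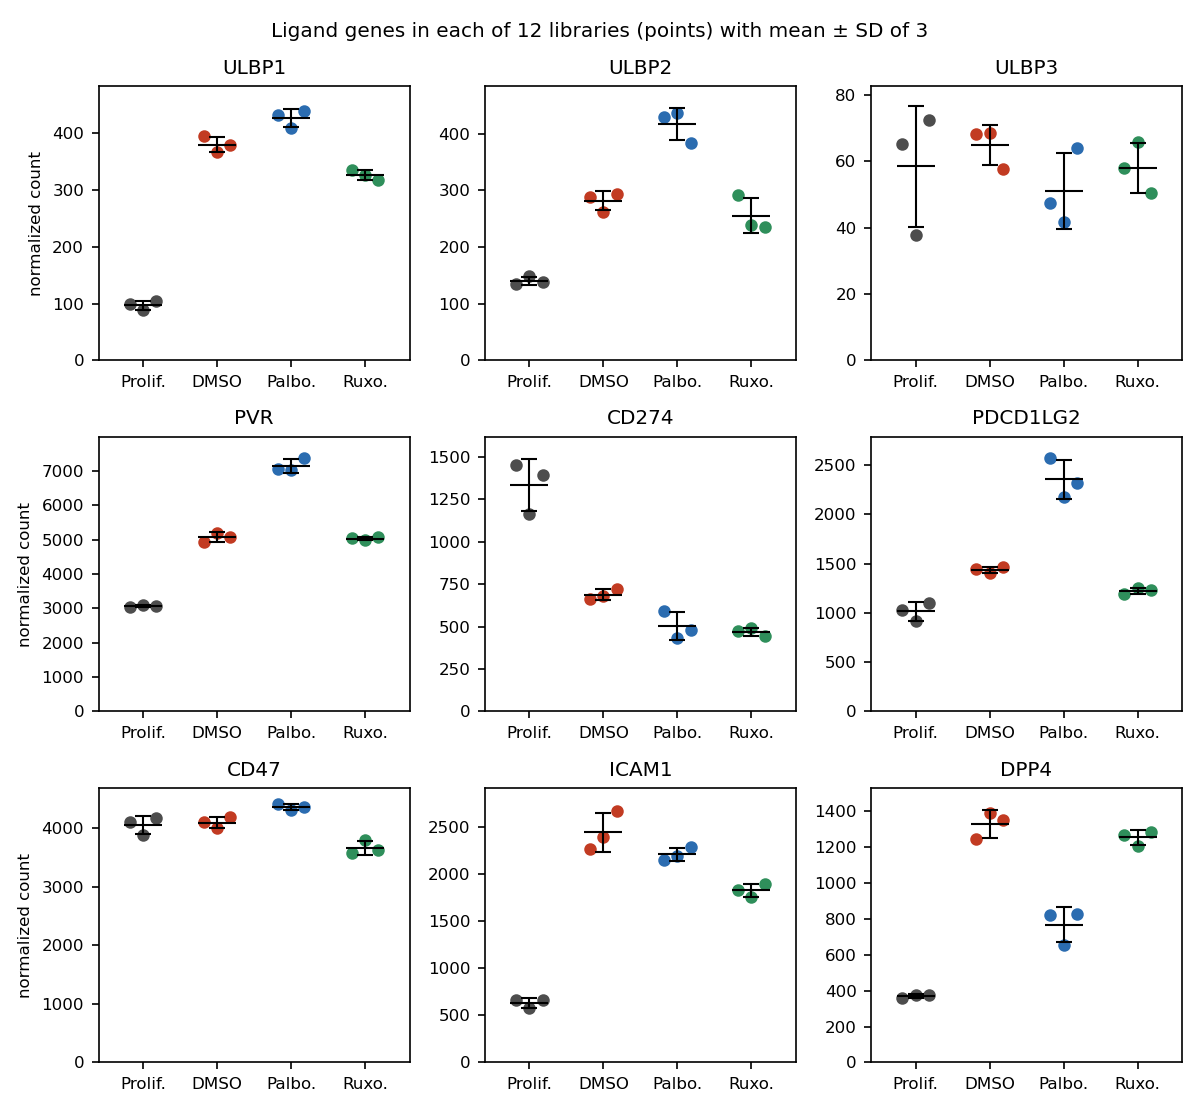
Normalized counts (vertical axes, each from 0) of the 9 tested ligand genes in the 12 libraries, 3 per group along the horizontal axis; points are libraries, bars the mean and SD. The proliferating libraries lie below all irradiated ones for ULBP1, ULBP2, PVR, PDCD1LG2, ICAM1 and DPP4 and above them for CD274, and the groups of ULBP3 overlap.

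**Figure D2:**
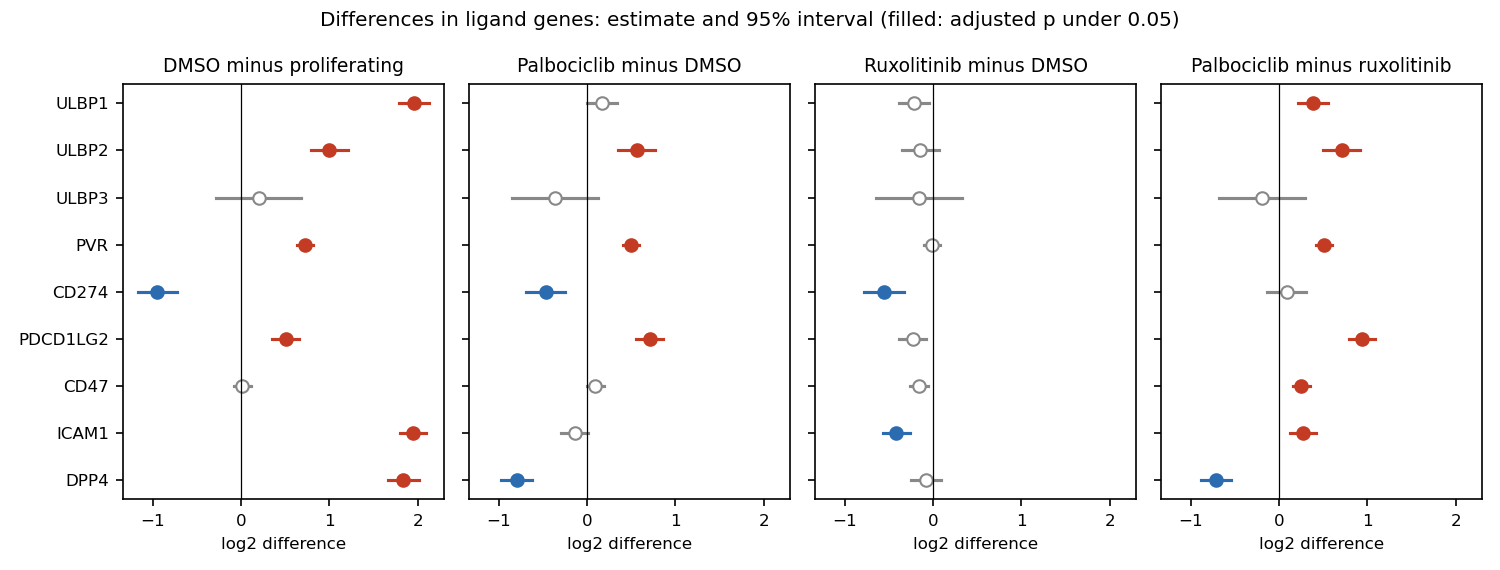
Log2 differences (horizontal axes) of the 9 tested ligand genes in 4 comparisons, with 95% intervals; filled points passed an adjusted p under 0.05, red where the group named first in the panel title is higher and blue where it is lower. For ruxolitinib minus DMSO the filled points are CD274 and ICAM1, both lower.

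ULBP1 (Entrez gene 80329) lies at chr6:149963943-149973715 on the forward strand of GRCh38.p14 and encodes an NKG2D ligand held in the membrane by a lipid anchor. Its normalized counts were 98.6, 88.7 and 103.8 in proliferating cells, 394, 367 and 378 in DMSO cells, 432, 409 and 439 under palbociclib and 335, 326 and 318 under ruxolitinib. No groups overlapped, with palbociclib highest, then DMSO, ruxolitinib and proliferating cells. DMSO against proliferating cells differed by 1.96 (SE 0.08, adjusted p 7.11e-12). The difference from proliferating cells was 2.13 (adjusted p 1.77e-12) for palbociclib and 1.74 (adjusted p 2.61e-11) for ruxolitinib. Among the irradiated groups, neighbours in the order did not differ by the test. Palbociclib against DMSO gave 0.17 (95% interval -0.01 to 0.34, adjusted p 0.102), which turned to -0.058 at the same total and was called at 0.21 under quantile normalization (adjusted p 0.048). Ruxolitinib against DMSO gave -0.22 (95% interval -0.39 to -0.05, adjusted p 0.176), a difference that was called when these 2 groups were fitted alone (adjusted p 0.0363). Palbociclib against ruxolitinib gave 0.39 (SE 0.08, adjusted p 0.00149).

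ULBP2 (80328) is a close relative encoded 14.7 kb upstream, at chr6:149942014-149949235 on the forward strand. It had 135, 149 and 138 normalized counts in proliferating cells, 289, 263 and 294 in DMSO cells, 430.5, 437 and 385 under palbociclib and 292, 239 and 236 under ruxolitinib. The palbociclib libraries were above all others and the proliferating ones below all others, while DMSO and ruxolitinib overlapped. DMSO was 2.00-fold above proliferating cells (1.00, SE 0.10, adjusted p 1.84e-07). Palbociclib exceeded DMSO by 0.56 (SE 0.10, adjusted p 0.000244) and ruxolitinib by 0.71 (adjusted p 3.9e-05), and the first was 0.34 at the same total (adjusted p 0.0107). Ruxolitinib against DMSO gave -0.15 (95% interval -0.35 to 0.06, adjusted p 0.531). Of the ULBP2 transcript 10.2% matched other places of the genome over at least 50 bases, so reads of that stretch are uncertain.

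ULBP3 (79465), the NKG2D ligand at chr6:150061053-150069121 on the reverse strand, lies 87.3 kb beyond ULBP1. It had 65.4, 37.7 and 72.4 normalized counts in proliferating cells, 68.3, 68.7 and 57.8 in DMSO cells, 47.6, 41.6 and 64.0 under palbociclib and 57.9, 65.7 and 50.5 under ruxolitinib. All 4 groups overlapped, and none of the 6 comparisons was called. The estimate was 0.20 for DMSO against proliferating cells (95% interval -0.29 to 0.68, adjusted p 0.448), and its sign changed without library A126 (-0.09) and under quantile normalization (-0.11). It was -0.36 for palbociclib against DMSO (95% interval -0.85 to 0.13, adjusted p 0.208), and this difference was called at the same total (-0.58, adjusted p 0.0398). Of the ULBP3 transcript 9.87% matched elsewhere in the genome. Whether the 3 neighbouring ULBP genes responded differently from each other was not tested.

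MICB (4277), the NKG2D ligand encoded in the MHC at chr6:31494918-31511124, was listed at 0 in 10 of 12 libraries. A palbociclib library held 3 reads (3.28 normalized counts) and a ruxolitinib library held 1 read (0.900). Other genes of the region were low too. Of 143 protein-coding genes listed between 28.5 and 33.5 Mb of chromosome 6, 110 (76.9%) had a mean under 1, against 13.9% of 667 genes on the rest of the chromosome and 14.7% of 14407 on others. DDX39B, an RNA helicase that every cell uses, averaged 0.0964 normalized counts over the 12 libraries.

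The hg38 assembly holds alternate versions of the region around MICB. All of the MICB transcript (100%) and 91.3% of that of DDX39B matched such alternate sequences exactly over at least 50 bases, against 33.8% for HLA-B, which averaged 1211. Whether the authors' alignment included alternate sequences is not given in the sources used here, and their part in the values was not tested. No level or difference is therefore read from the zeros of MICB. Its close relative MICA was not analysed here.

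**Figure D3:**
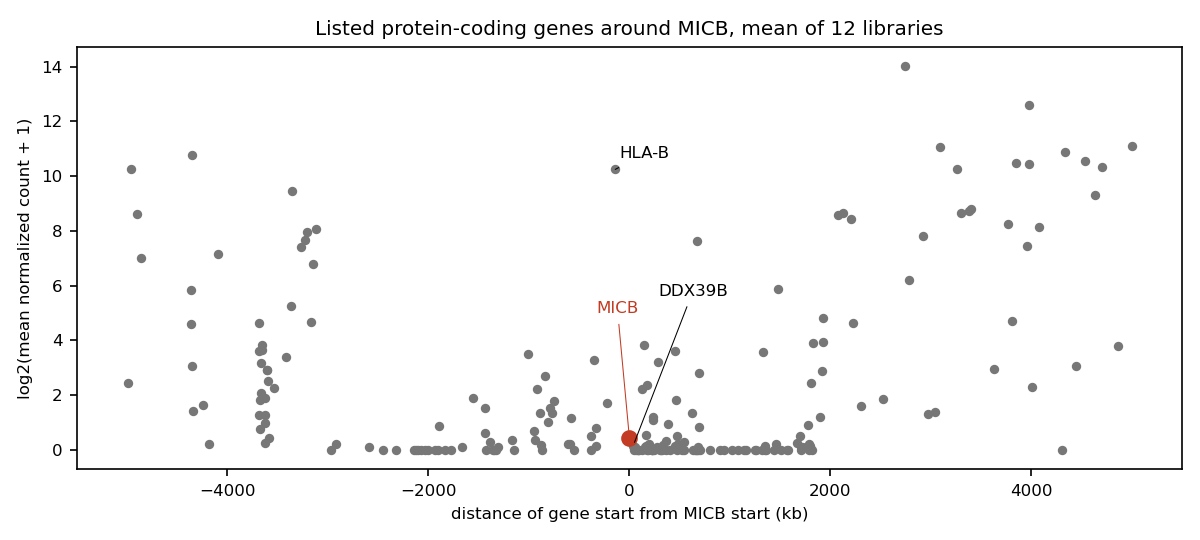
Mean level over the 12 libraries, as log2(normalized count + 1), of listed protein-coding genes against the distance of their start from that of MICB in kb; MICB is red. Most genes near MICB lie at or near 0, and HLA-B is an exception.

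PVR (5817), at chr19:44643910-44666162 on the forward strand, was the NK ligand with the most counts. Its normalized counts were 3045, 3109 and 3054 in proliferating cells, 4936, 5203 and 5082 in DMSO cells, 7045, 7023 and 7387 under palbociclib and 5032, 4986 and 5071 under ruxolitinib. Proliferating libraries were lowest and palbociclib libraries highest, and the ruxolitinib libraries lay within the range of the DMSO ones. DMSO exceeded proliferating cells by 0.72 (SE 0.04, adjusted p 4.82e-10). Palbociclib exceeded DMSO by 0.50 (SE 0.04, adjusted p 2.39e-07) and ruxolitinib by 0.51 (adjusted p 2.53e-07). The palbociclib difference from DMSO was 0.27 with equal totals and 0.23 under quantile normalization (adjusted p 0.000624), and that from ruxolitinib 0.31 and 0.26, all of them called. Ruxolitinib against DMSO gave -0.01 with a 95% interval of -0.10 to 0.08 (adjusted p 0.941). Of the PVR exons 19.4% overlap an uncharacterised transcript on the same strand and 1.16% the gene CEACAM19, and reads of those stretches are uncertain.

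The PD-1 ligands CD274 (29126) and PDCD1LG2 (80380) are neighbours on chromosome 9, at chr9:5450542-5470554 and chr9:5510531-5571282, 39.98 kb apart. They moved in opposite directions after irradiation. CD274 had 1451, 1161 and 1392 normalized counts in proliferating cells, 664, 678 and 724 in DMSO cells, 593, 435 and 479 under palbociclib and 473, 489.8 and 442 under ruxolitinib. Every proliferating library was above every irradiated one and every DMSO library above those of both inhibitors, which overlapped each other. DMSO was 1.93-fold lower than proliferating cells (-0.95, SE 0.10, adjusted p 6.52e-07). CD274 was lower again with palbociclib (-0.47, SE 0.10, adjusted p 0.00178) and with ruxolitinib (-0.56, SE 0.10, adjusted p 0.00467), each against DMSO. Palbociclib against ruxolitinib gave 0.09 (95% interval -0.13 to 0.31, adjusted p 0.522), and the sign changed at the same total (-0.11) and without library A119 (-0.04).

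PDCD1LG2 had 1028, 915 and 1101 normalized counts in proliferating cells, 1446, 1402 and 1465 in DMSO cells, 2571, 2174 and 2321 under palbociclib and 1189.7, 1249.8 and 1237 under ruxolitinib. No groups overlapped, and the order was palbociclib, DMSO, ruxolitinib and proliferating cells. DMSO exceeded proliferating cells by 0.51 (SE 0.07, adjusted p 1.07e-05). Palbociclib exceeded DMSO by 0.71 (SE 0.07, adjusted p 1.2e-06) and exceeded ruxolitinib 1.92-fold (0.94, adjusted p 7.61e-08), and 0.97% of all genes had a larger rise between the inhibitors. Ruxolitinib against DMSO was -0.23 (95% interval -0.38 to -0.08, adjusted p 0.0917), with calls at the same total (-0.26, adjusted p 0.0387) and when these 2 groups were fitted alone (adjusted p 0.000307). Ruxolitinib cells exceeded proliferating cells by 0.28 (adjusted p 0.00266), and by 0.48 at the same total (adjusted p 9.9e-06). Per kb of exons the order was PDCD1LG2 above CD274 in all 4 groups, at 417 and 325 in proliferating cells and 968 and 122 with palbociclib.

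The 250 bases before the start that the RefSeq promoter table gives for each gene were searched for motifs on both strands, since the factors that bind them carry interferon, NF-kB, p53 and cell cycle signals. RefSeq promoter sequences of GRCh38.p14 were matched for 9 of the 10 members, all but PDCD1LG2. CD274 and ICAM1 held matches, and the other 7 windows held none. For MICB the window, chr6:31497895-31498144, lies within the gene coordinates given above, so its lack of a match is not about the bases before that start. The CD274 window, chr9:5450292-5450541 on the forward strand, is shown for its match to the motif GAS (TTCNNNGAA, positions -125 to -117 from the start) and for overlapping matches to the ISRE core (GAAANNGAA, reverse strand, positions -207 to -199 and -201 to -193), all in capitals. The ICAM1 window, chr19:10270870-10271119 on the forward strand, is shown for its GAS match (positions -75 to -67) and for overlapping matches to the NF-kB motif (positions -187 to -178 and -186 to -177), again in capitals.
CD274: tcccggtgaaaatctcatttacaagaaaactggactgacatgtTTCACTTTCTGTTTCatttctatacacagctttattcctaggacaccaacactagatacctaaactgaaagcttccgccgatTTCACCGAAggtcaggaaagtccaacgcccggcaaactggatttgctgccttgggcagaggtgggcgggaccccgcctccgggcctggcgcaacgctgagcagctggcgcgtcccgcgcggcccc
ICAM1: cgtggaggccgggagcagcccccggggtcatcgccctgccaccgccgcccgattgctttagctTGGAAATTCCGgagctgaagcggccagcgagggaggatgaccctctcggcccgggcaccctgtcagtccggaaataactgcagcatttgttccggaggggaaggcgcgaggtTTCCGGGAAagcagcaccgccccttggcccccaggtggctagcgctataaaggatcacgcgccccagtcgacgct
Of 35114 promoter windows of this length, 6.57% held GAS, 6.88% the ISRE core, 12% the NF-kB motif, 5.57% the p53 half-site and 0.968% an E2F motif (TTTCGCGC or TTTGGCGC). The 2 genes with a GAS match are those limma called lower with ruxolitinib than with DMSO, which was noticed after the values were seen and not tested. This depends on the threshold. ULBP1, PDCD1LG2 and CD47 were also lower at an unadjusted p under 0.05 by limma, and DESeq2 called CD47 (adjusted p 0.0204). The ULBP1 and CD47 windows held no match, and PDCD1LG2 had no window. A match describes letters and does not show binding, and no match says only that these letters are not in this window.

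CD47 (961), the signal that restrains phagocytosis, lies at chr3:108043091-108091031 on the reverse strand. It had 4098, 3881 and 4181 normalized counts in proliferating cells, 4098, 4001 and 4184 in DMSO cells, 4419, 4315 and 4354 under palbociclib and 3571, 3793 and 3619 under ruxolitinib. Ruxolitinib libraries were lowest and palbociclib libraries highest, and DMSO and proliferating cells overlapped. DMSO against proliferating cells gave 0.02 with a 95% interval of -0.08 to 0.11 (adjusted p 0.779). This depended on the scaling, with a call of 0.24 at the same total (adjusted p 0.000125), 0.17 at the same upper quartile (adjusted p 0.00246) and 0.21 under quantile normalization (adjusted p 0.000423).

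Palbociclib against DMSO gave 0.09 for CD47 (95% interval -0.01 to 0.19, adjusted p 0.115) and turned to -0.13 at the same total (adjusted p 0.0174). Ruxolitinib against DMSO gave -0.16 (95% interval -0.26 to -0.06, adjusted p 0.0627), with calls at the same total (adjusted p 0.0208), under quantile normalization (adjusted p 0.0244), by DESeq2 (adjusted p 0.0204) and when these 2 groups were fitted alone (adjusted p 0.00145). Palbociclib exceeded ruxolitinib by 0.25 (adjusted p 0.000493), a call lost under quantile normalization (0.09, adjusted p 0.146) and at the same total. Against proliferating cells palbociclib gave 0.11 (adjusted p 0.0481), a call lost in 7 of 18 alternatives, among them without library A125, A126, A119 or A121, and 0.20 at the same upper quartile (adjusted p 0.000639). Ruxolitinib gave -0.15 (adjusted p 0.0099) against proliferating cells, which turned to 0.058 at the same total, 0.023 at the same upper quartile and 0.032 under quantile normalization, none of them called, and was not called by edgeR with TMM factors (-0.08, adjusted p 0.123). All 6 differences of CD47 were thus at most 0.25 in size as deposited.

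ICAM1 (3383), which gives leukocytes a hold on the cell, lies at chr19:10271120-10286615 on the forward strand. It had 663, 572 and 659 normalized counts in proliferating cells, 2264, 2389 and 2668 in DMSO cells, 2149, 2192 and 2284 under palbociclib and 1825.5, 1756 and 1897 under ruxolitinib. The proliferating libraries were lowest, the ruxolitinib libraries lay below the other irradiated ones, and DMSO and palbociclib overlapped. DMSO exceeded proliferating cells by 1.95 (SE 0.07, adjusted p 1.31e-12). Ruxolitinib against DMSO was -0.42 (SE 0.07, adjusted p 0.00197), 1.33-fold lower, and ruxolitinib cells still exceeded proliferating cells by 1.53 (adjusted p 2e-11). Palbociclib against DMSO was -0.14 (95% interval -0.29 to 0.01, adjusted p 0.11), with calls at the same total (-0.37, adjusted p 0.000272), at the same upper quartile (-0.20, adjusted p 0.0205), under quantile normalization (-0.27, adjusted p 0.00539), by edgeR with TMM factors (-0.17, adjusted p 0.0473) and by DESeq2 (adjusted p 0.0497). Palbociclib against ruxolitinib was 0.27 (adjusted p 0.0057), a call lost under quantile normalization (0.15, adjusted p 0.101) and with equal totals. Of the ICAM1 exons 23.6% overlap the antisense gene ICAM4-AS1, and because the strand setting of the counting is not given in the sources used here, reads of that stretch cannot be told apart.

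DPP4 (1803), at chr2:161992245-162074215 on the reverse strand, had 359, 377 and 377 normalized counts in proliferating cells, 1244, 1389.8 and 1354 in DMSO cells, 820.0, 656 and 828 under palbociclib and 1270.0, 1209 and 1288 under ruxolitinib. Palbociclib libraries lay between the proliferating ones and all others, and DMSO and ruxolitinib overlapped. DMSO exceeded proliferating cells by 1.84 (SE 0.08, adjusted p 1.51e-11). Palbociclib was lower than DMSO by 1.74-fold (-0.80, SE 0.08, adjusted p 1.33e-06) and lower than ruxolitinib by 1.64-fold (-0.72, adjusted p 5.69e-06), and it still exceeded proliferating cells by 1.04 (adjusted p 1.09e-08). Ruxolitinib against DMSO gave -0.08 (95% interval -0.25 to 0.09, adjusted p 0.706). DPP4 was the only tested ligand gene that was lower with palbociclib than with ruxolitinib and passed the test.

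Levels of different genes were compared per kb of exon, with all annotated exons of a gene joined. In proliferating cells CD47 was highest, at 492 ± 18.9 normalized counts per kb (SD, n = 3), and ICAM1 was at 183 ± 14.9. With DMSO ICAM1 was highest, at 708 ± 60.0, ahead of PDCD1LG2 at 591 ± 13.4, CD47 at 497 ± 11.1 and PVR at 487 ± 12.8, of which the last 2 differed by less than their spread. With palbociclib PDCD1LG2 led at 968 ± 82.5, ahead of PVR at 686 ± 19.6 and ICAM1 at 640.4 ± 20.0. With ruxolitinib ICAM1 (529.6 ± 20.4) and PDCD1LG2 (504 ± 13.0) led. ULBP3 was lowest in all 4 groups, at 16.4 to 20.9 per kb. The order rests on the gene model. Per kb of the canonical transcript, an alternative chosen after seeing the data, PVR led with DMSO (876 ± 23.05), palbociclib (1235 ± 35.2) and ruxolitinib (868 ± 7.38), and DPP4 with DMSO was at 372 instead of 92.1, since its joined exons span 14.4 kb and its canonical transcript 3.57 kb. ULBP3 stayed lowest in all 4 groups.

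**Figure D4:**
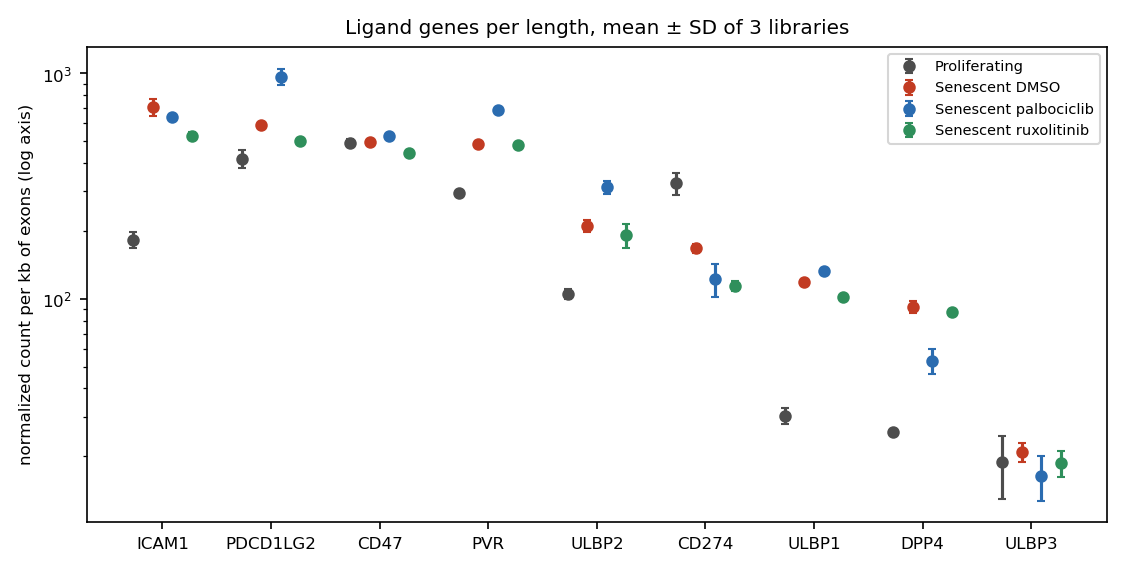
Normalized count per kb of joined exons (vertical log axis) of the 9 tested ligand genes (horizontal axis, ordered by level with DMSO), mean and SD of 3 libraries for each of the 4 groups. ICAM1, ULBP1 and DPP4 have the widest gaps between proliferating and DMSO cells, and ULBP3 is lowest.

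Other genes tied to NK cell recognition were taken from a list of 15 genes, of which 9 were tested. The list is mixed, since CLEC2D, for one, binds an inhibitory receptor, so its counts are not those of activating ligands alone. BAG6, a tested gene of the region around MICB, averaged 13.3 normalized counts, with 77.5 in the palbociclib library A119. With DMSO against proliferating cells 4 were higher and 3 lower (median 0.44). CLEC2B, a ligand of NKp80, went from 77.1 to 174 normalized counts (1.18, adjusted p 1.72e-06) and CD58, a ligand of CD2, from 61.4 to 112 (0.84, adjusted p 0.000129). PDGFD, a ligand of NKp44, went from 185 to 79.8 (-1.21, adjusted p 5.43e-07) and the cell contact protein NECTIN1 from 399 to 246 (-0.69, adjusted p 1.82e-06). With palbociclib against DMSO 3 were lower and none higher (median -0.06), beside 22.3% lower and 26% higher of all genes. At an unadjusted p under 0.05 there were 1 higher and 3 lower, and by edgeR and DESeq2 none higher and 3 lower, but under quantile normalization 1 was higher and none lower. CD58 (-0.52, adjusted p 0.0106) and NECTIN1 (-0.35, adjusted p 0.00279) lost their calls there. With ruxolitinib against DMSO limma called none of the 9 (1 lower at an unadjusted p under 0.05, none by edgeR or DESeq2).

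Among 8 tested genes of a list of other checkpoint genes, 4 were higher and 4 lower with DMSO than in proliferating cells. The list is mixed. TNFSF4 and TNFSF18 are ligands that stimulate T cells, and NT5E and ENTPD1 are enzymes, so its counts are not those of inhibitory ligands. LGALS9 (galectin-9), a ligand of TIM-3, went from 21.0 in proliferating cells to 102 with DMSO (2.23, adjusted p 2.34e-08), and was at 28.2 with palbociclib (-1.82 against DMSO, adjusted p 1.18e-06) and 42.0 with ruxolitinib (-1.26, adjusted p 0.000506). It was the gene called lower with both inhibitors in this list. NT5E (CD73), which makes adenosine, went from 11058 to 18877 after irradiation (0.78, adjusted p 2.34e-08), while the checkpoint ligand CD276 was lower (-0.63, adjusted p 1.38e-07) and so was TNFSF4 (-0.66, adjusted p 2.42e-06). With palbociclib 2 were higher and 1 lower, TNFSF4 (0.44, adjusted p 0.000425) and LGALS3 (0.17, adjusted p 0.0182) being the higher ones, and LGALS3 turned to -0.05 at the same total.

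Of 6 classical and related HLA class I genes, which inhibit NK cells, 2 were tested, and 4 had a mean under 10 in the same chromosome region as MICB. HLA-B went from 1325 ± 140 normalized counts (SD, n = 3) in proliferating cells to 1642 ± 163 with DMSO, which limma did not call (edgeR called it higher and DESeq2 did not). It was 1043 ± 216 with palbociclib (-0.67, adjusted p 0.00129) and 836 ± 175 with ruxolitinib (-0.99, adjusted p 0.000459), both lower than with DMSO. HLA-E, at 8.74 to 11.5, was not called in any comparison. Of its transcript 97.25% matched alternate sequences of hg38 exactly, a trait it shares with MICB. No level or lack of difference is therefore read from the low HLA-E values.

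Other leukocyte adhesion molecules were a list of 16 genes. Of 11 tested, 6 were higher and 3 lower with DMSO than in proliferating cells (median 0.29). ICAM5, whose gene starts 18.8 kb from that of ICAM1, went from 102.5 to 323 (1.65, adjusted p 1.8e-10), VCAM1 from 139.8 to 352 (1.31, adjusted p 1.75e-07) and the hyaluronan receptor CD44 from 34771 to 76292 (1.14, adjusted p 1.07e-10), while MCAM was lower (-0.59, adjusted p 1.01e-08). With palbociclib against DMSO 7 were higher and 1 lower (median 0.28), against 3 higher and 2 lower at the same total. ICAM5 was at 574 (0.82, adjusted p 2.95e-06) and VCAM1 at 525 (0.59, adjusted p 0.0014), both above DMSO, while ICAM1 was not called higher. ICAM4, 15.8 kb from ICAM1, was at 59.8 with DMSO and 102 with palbociclib (0.76, adjusted p 0.0112), a call lost at the same total. With ruxolitinib MCAM alone was called, lower (-0.20, adjusted p 0.0174), and 10 of the 11 were not called, where 4.52% of all genes were called.

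DPP4 was set beside 9 other surface or prolyl peptidases and binding partners, all tested. With DMSO against proliferating cells 1 was higher and 6 were lower (median -0.19). The higher one was the lysosomal peptidase DPP7, from 482 to 766 (0.69, adjusted p 7.75e-05), and the fibroblast activation protein FAP, the closest relative of DPP4, was lower (-0.54, adjusted p 2.96e-06). The surface peptidase MME (CD10) fell from 2384 to 1413 (-0.75, adjusted p 1.73e-07). With palbociclib MME was at 441 (-1.68, adjusted p 1.25e-10) and with ruxolitinib at 1002 (-0.49, adjusted p 0.000633), each against DMSO. CAV1, a membrane protein reported to bind DPP4, was higher with palbociclib (0.78, adjusted p 5.56e-09), and 2 of the 9 were higher and 2 lower there.

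A list of 13 tested genes that process, stabilise or bind the members had 6 higher and 6 lower with DMSO than in proliferating cells, 6 higher and 2 lower with palbociclib against DMSO (2 and 5 at the same total), and none called by limma, edgeR or DESeq2, or at an unadjusted p under 0.05, with ruxolitinib against DMSO. QPCTL, the enzyme that modifies CD47 so that SIRP alpha binds it, went from 167 to 310.3 after irradiation (0.91, adjusted p 2.01e-05) and to 466 with palbociclib (0.57 against DMSO, adjusted p 0.00291). Its relative QPCT, an enzyme of the same activity, went from 92.4 to 192 after irradiation (1.04, adjusted p 1.17e-06) and was at 113 with palbociclib (-0.76 against DMSO, adjusted p 0.000112), in the other direction from QPCTL. THBS1, a secreted ligand of CD47, was higher with palbociclib than with DMSO (0.75, adjusted p 9.39e-07). CMTM6, which keeps the CD274 protein at the surface, was at 2987 in proliferating cells, 3436 in DMSO cells, 4276 under palbociclib and 3415 under ruxolitinib, and palbociclib exceeded ruxolitinib by 0.32 (adjusted p 0.000134).

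Signal carriers known from textbooks to act on these genes were a list of 24, all tested, with 8 higher and 7 lower with DMSO than in proliferating cells. IRF1, the interferon factor best known for raising CD274, was at 473 in proliferating cells, 609.5 with DMSO, 315 with palbociclib (-0.96, adjusted p 9.64e-07) and 399.9 with ruxolitinib (-0.61, adjusted p 0.00097), each inhibitor against DMSO. Both IRF1 and CD274 were thus lower with each inhibitor than with DMSO. With palbociclib 2 of the 24 were higher and 10 lower (1 and 18 at the same total), and with ruxolitinib 1 was higher and 5 lower.

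**Figure D5:**
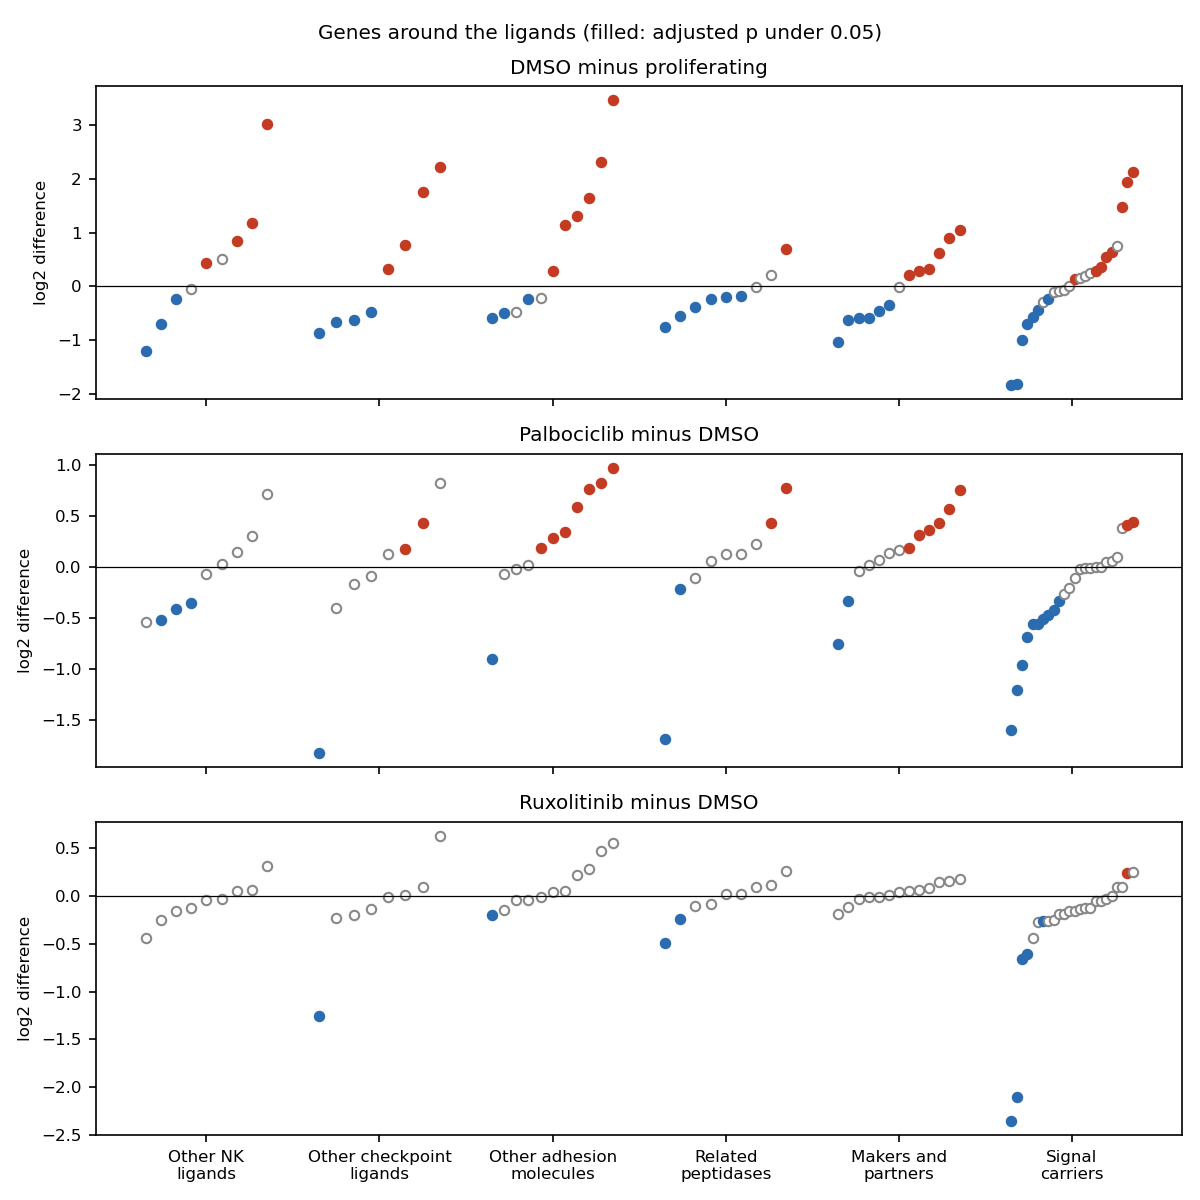
Log2 differences (vertical axes) of the tested genes of 6 related lists (horizontal axis, ordered by value within each list) in 3 comparisons; each point is a gene, filled where the adjusted p was under 0.05, red higher and blue lower. Genes of most lists lie on both sides of 0 after irradiation, and with ruxolitinib few points are filled.

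Receptors on the other side of these contacts had low values. Of 14 receptor genes of immune cells 12 were listed, 11 of them with a mean under 10, among them the NKG2D gene KLRK1, with group means of 0 to 0.330, and the LFA-1 subunit ITGB2, with group means of 0.739 to 4.38. The one tested was CD226, the activating receptor of PVR, with group means of 7.28 in proliferating cells, 15.0 in DMSO cells, 9.19 under palbociclib and 13.3 under ruxolitinib. DMSO exceeded proliferating cells by 1.11 (adjusted p 0.0277), though their libraries overlapped and DESeq2 did not call it, and limma called none of its other 5 comparisons (1 at an unadjusted p under 0.05, none by edgeR or DESeq2). HCST, ITGAM and LAG3 reached group means of 11.8, 11.5 and 14.2. TIGIT and SIRPA were not analysed here.

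For each tested member the genes most like it over the 12 libraries were named by Pearson's r among 9249 genes (9250 for ULBP3) with a mean of at least 100. These values describe libraries that share 4 groups, and they carry no test. ULBP1 was nearest to TUFT1 (r 0.996), ELMOD1 and ANGPTL4, ULBP2 to DHDDS (0.986), NT5C2 and SCAMP2, and PVR to RTN4 (0.998), SYNPO and TRAM1. CD274 was nearest to PDP1 (0.984), HAS2 and ADGRG6, and PDCD1LG2 to TEK (0.994), HEG1 and EFEMP1. ICAM1 was nearest to CSGALNACT2 (0.995), STAT6 and TGM2, DPP4 to TNFRSF10C (0.994), ABTB2 and EDA2R, and CD47 to LIMA1 (0.951), MARCHF4 and PICALM. ULBP3 had no close neighbour, with DSG2 nearest at 0.791. None of the members was among the 3 genes nearest to another, which does not mean that members were unlike. Between members r ran from -0.882 (CD274 with ULBP1) to 0.986 (ULBP1 with ICAM1).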

How the data were processed

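Poly(A) RNA was sequenced from 12 IMR90 libraries. The authors deposited one table of counts normalized per library, a coverage signal. The submitters' processing notes name Trimmomatic 0.38.1, HISAT2 2.2.1, featureCounts 2.0.3 and DESeq2 2.11.40.8 and the build hg38, and the annotation, strand setting and use of alternate sequences are not given in the sources used here. All 160380 values above 0 (100%) were whole multiples of a step per column, at a tolerance of 0.01, so whole reads were recovered. Columns carry a group but no replicate number.

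The main test was limma 3.58.1 (R 4.3.3) on log2(value + 1), with 4 group means, moderated variances with a trend, and Benjamini-Hochberg adjustment over 11242 genes with a mean of at least 10, since the deposited counts are normalized. A fold change on this scale understates the change of low genes. Checked on simulated data first, the fit was then repeated under the alternatives named in the closing section, with edgeR 4.0.16 and DESeq2 1.42.0 on the recovered reads as the count tests. Between 508 and 8298 genes were called per comparison by limma and between 556 and 8276 by edgeR with TMM factors. The members, lists and tests were chosen with earlier results of these data known. All members are named, and the rule for the lists was the up to 4 called genes of largest change whose higher group averaged 100 or more, of which examples are given. HLA-E and the receptors named fall outside it; their values were known when they were picked. Gene positions and promoters are from RefSeq (GRCh38.p14), exon lengths from the GENCODE annotation, and exact matches of at least 50 bases were found with blastn 2.17.0. Protein sequences were not used here, and 1 gene of the lists is not reported here.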

Additional observations from a re-analysis of the deposited data

How the results depend on the processing

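Over 54 differences of the 9 tested ligand genes and 972 alternative values, 921 kept the direction and the side of the threshold, 15 kept the direction and lost the call, 17 gained it, and 19 changed sign. Leaving out 1 library moved the counts of called ligand genes by at most 1 (7 to 8 for palbociclib against proliferating cells). Scaling moved them more. At the same total 8 were called for palbociclib against DMSO (3 higher, 5 lower), 4 for ruxolitinib against DMSO and 4 for palbociclib against ruxolitinib. With 2 groups fitted alone, ruxolitinib against DMSO gave 5. Asking for at least 2-fold as well left 3 for DMSO and 4 for ruxolitinib against proliferating cells, and 0 by limma for palbociclib against DMSO, ruxolitinib against DMSO and palbociclib against ruxolitinib. Signs changed for small differences, and the cause was not tested. At the same total this held for ULBP1 (-0.058) and CD47 (-0.13) with palbociclib against DMSO, CD274 with palbociclib against ruxolitinib (-0.11) and CD47 with ruxolitinib against proliferating cells (0.058). At the same upper quartile it held for PVR with ruxolitinib against DMSO (0.0037) and CD47 with ruxolitinib against proliferating cells (0.023). Under quantile normalization it held for ULBP3 with DMSO (-0.11) and ruxolitinib (-0.19) against proliferating cells and with palbociclib against ruxolitinib (0.070), and for CD47 with palbociclib against DMSO (-0.10) and ruxolitinib against proliferating cells (0.032). Without 1 library the ranges that crossed 0 were -0.086 to 0.37 (DMSO), -0.45 to 0.015 (palbociclib) and -0.25 to 0.21 (ruxolitinib) for ULBP3 against proliferating cells, -0.016 to 0.038 for CD47 with DMSO against proliferating cells, -0.032 to 0.0060 for PVR with ruxolitinib against DMSO and -0.037 to 0.19 for CD274 with palbociclib against ruxolitinib. No paired analysis was possible because the columns carry no replicate number. ULBP3, with 34 to 76 reads per library, is the tested gene most limited by depth.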
